A study of Rattus norvegicus with 15 samples.

Results

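The subunits of the respiratory chain measured here were 70 protein coding genes, 12 on the mitochondrial genome and 58 in the nucleus, out of 33717 genes in a table of RNA-seq read counts from rat chondrocytes. They were chosen by name and by a mean of at least 10 counts over the 15 libraries. The rule did not use how they differed between groups, but it was set with earlier results of these data known. The names were those of the NADH dehydrogenase subunits (Mt-nd and Nduf with the letter a, b, c, s or v), the succinate dehydrogenase subunits (Sdha to Sdhd), the Uqcr genes of the cytochrome bc1 complex, the subunits of cytochrome c oxidase (Mt-co and Cox4 to Cox8) and the mitochondrially encoded ATP synthase subunits (Mt-atp). The names of 80 genes matched. Of these, 2 were pseudogenes, second copies of Cox7a2 and Uqcr10, and 8 coding genes lay under the count minimum, among them Cox6b2, with the highest mean of the 8 at 8.8 counts, and the muscle form Cox8b, at 0.1. The member with the lowest mean was Ndufa4l2, at 42.5 counts. Cox6b1 entered on chromosome 1 (mean 1798.7 counts) and as a second copy, annotated as coding, on chromosome 2 (280.0 counts). Both copies count among the 58 nuclear members. Cytochrome b is listed as Mt-cytb, which the name rule does not match, so its values are given beside the members and not among them. All 70 members passed the filter on low counts that left 14147 genes for testing.

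The cells were primary chondrocytes of the temporomandibular joint (TMJ), the jaw joint, in 5 groups of 3 libraries. The groups were Ddx5 siRNA with mechanical stress (labelled si-ddx5+mechanical stress), mechanical stress alone, Ddx5 siRNA alone (si-ddx5), a control siRNA (si-nc), and a control whose label says only nc. DDX5 is a DEAD-box RNA helicase, and the series sought what changes downstream of it. The strain, age and sex of the rats, the kind and length of the stress, and the siRNA sequences and their delivery are not stated in the labels. No group had control siRNA with stress, so Ddx5 siRNA with stress could be set only against stress without siRNA. Whether replicates are separate cultures or animals is not stated. A p-value here reflects the spread of libraries within groups, and that spread may be technical. In the main fit the spread is shared over all 5 groups, so libraries outside a comparison also enter its p-values.

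The respiratory chain passes electrons from NADH through complex I, or from succinate through complex II, to ubiquinone, then through complex III and cytochrome c to complex IV, which reduces oxygen. Complexes I, III and IV pump protons, and complex V, the ATP synthase, uses the gradient. Complexes I, III, IV and V are built from proteins of both genomes, while complex II is encoded wholly in the nucleus. The mitochondrial genes are transcribed as long precursors that are cut into single RNAs, and the nuclear genes are transcribed one by one, many under the nuclear respiratory factors NRF1 and GABP. Cartilage has no blood vessels, and chondrocytes live at low oxygen and draw much of their ATP from glycolysis.

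Libraries held 14309005 to 16219775 counts, at which 3 counts equal 0.185 to 0.21 CPM, the usual rate of counts against the library's total, here after TMM correction of that total. Ddx5 was at 164, 241 and 194 CPM with Ddx5 siRNA and stress against 360, 416 and 418 CPM with stress, and at 221, 252 and 207 CPM with Ddx5 siRNA against 397, 398 and 360 CPM with control siRNA. Every Ddx5 siRNA library thus lay below its reference libraries, and Ddx5 fell by 1.0 and by 0.77 on the log2 scale (edgeR quasi-likelihood test, adjusted p 0.014 and 0.023). Both reference groups lay below the control, which had 545, 511 and 485 CPM. The log2 fold change against the control was -0.37 with stress and -0.42 with control siRNA (edgeR adjusted p 0.18 and 0.079). Replicate 1 of Ddx5 siRNA stood apart: over all genes it correlated more closely with the control siRNA libraries (mean r 0.978) than with its own group (0.967), although its Ddx5 level was as low as in the other two. Replicate 1 of Ddx5 siRNA with stress had the lowest correlation with its own group of the 15 libraries (0.959), against 0.966 with the stress libraries. Its replicates 2 and 3 also correlated slightly more with stress (0.974 and 0.973) than with their own group (0.972 and 0.971), and replicates 2 and 3 of Ddx5 siRNA slightly more with the control (0.978 and 0.975) than with theirs (0.977 and 0.974). Results that rest on these libraries are given with and without them. The 10 chondrocyte markers in the table summed to 180 to 323 CPM with Ddx5 siRNA and stress, 124 to 198 CPM with stress, 206 to 424 CPM with Ddx5 siRNA, 323 to 348 CPM with control siRNA and 172 to 275 CPM in the control. Acan made up most of each sum, at 73.4 to 367 CPM. Col2a1 was at 0.327 to 4.49 CPM, and Matn3, Col9a1 and Matn1 were at 0.498 CPM or less in every library. Markers of macrophages and leukocytes (6 genes, Cd163 at 0) summed to 18.4 to 42.5 CPM, of nerve (4 genes) to 21.0 to 55.4 CPM, of adipocytes (4 genes) to 0.419 to 2.61 CPM and of endothelium (3 genes, Cdh5 at 0) to at most 0.391 CPM.

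The mitochondrially encoded subunits were by far the most abundant members. In the control, the median level per length was 1683 CPM per kb over the 12 mitochondrial members and 85.4 CPM per kb over the 58 nuclear members. The ratio of these medians was 23.2 with Ddx5 siRNA and stress, 20.6 with stress, 23.3 with Ddx5 siRNA, 21.3 with control siRNA and 19.7 in the control. Mt-co1, the catalytic subunit of complex IV, stood highest at 10574 ± 1007 CPM per kb in the control (SD, n = 3). It was followed by Mt-atp6, a proton channel subunit of complex V, at 6150 ± 441 CPM per kb, which did not differ from Mt-cox3, another core subunit of complex IV, at 5682 ± 476 CPM per kb, beyond their spread. Mt-co2, which takes electrons from cytochrome c, had 4485 CPM per kb, and cytochrome b, the single complex III subunit of the mitochondrial genome, had 3982 CPM per kb.

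The 7 mitochondrial subunits of complex I, all in its membrane arm, lay lower. Mt-nd2 and Mt-nd1 had 2156 and 2128 CPM per kb in the control, Mt-nd3 1238, Mt-nd5 1139, Mt-nd6 1019 and Mt-nd4l 967, while Mt-nd4 had 187. The lowest mitochondrial member was Mt-atp8, at 81.6 CPM per kb. Mt-nd4 overlaps Mt-nd4l at positions 10160 to 10166, a small part of Mt-nd4, which is 1378 bases long. Mt-atp8, 204 bases long, overlaps Mt-atp6 at 7919 to 7961, and Mt-atp6 overlaps Mt-cox3 at 8599. Mt-nd5 and Mt-nd6 overlap on opposite strands at 13543 to 13565, and Mt-co1 overlaps AY172581.19 on the opposite strand. No label says how reads in these overlaps were assigned or whether strand was used, so the levels of these genes are uncertain, as are those of any gene that shares reads with a near-identical copy.

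Among the nuclear members, Cox6a1, a complex IV subunit, was highest in each group, at 501 CPM per kb in the control. In the control, median levels were 77.1 CPM per kb for complex I (31 members), 82.2 for complex II (4), 87.2 for complex III (7) and 149 for complex IV (15). The low end in the control was set by isoforms in complex IV. Cox4i2, Cox6a2 and Ndufa4l2 lay below 5 CPM in every control library, while their usual forms, Cox4i1, Cox6a1 and Ndufa4, lay above 100 CPM there. Sdhd, a membrane anchor of complex II, was the lowest of its complex in each group.

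**Figure D1:**
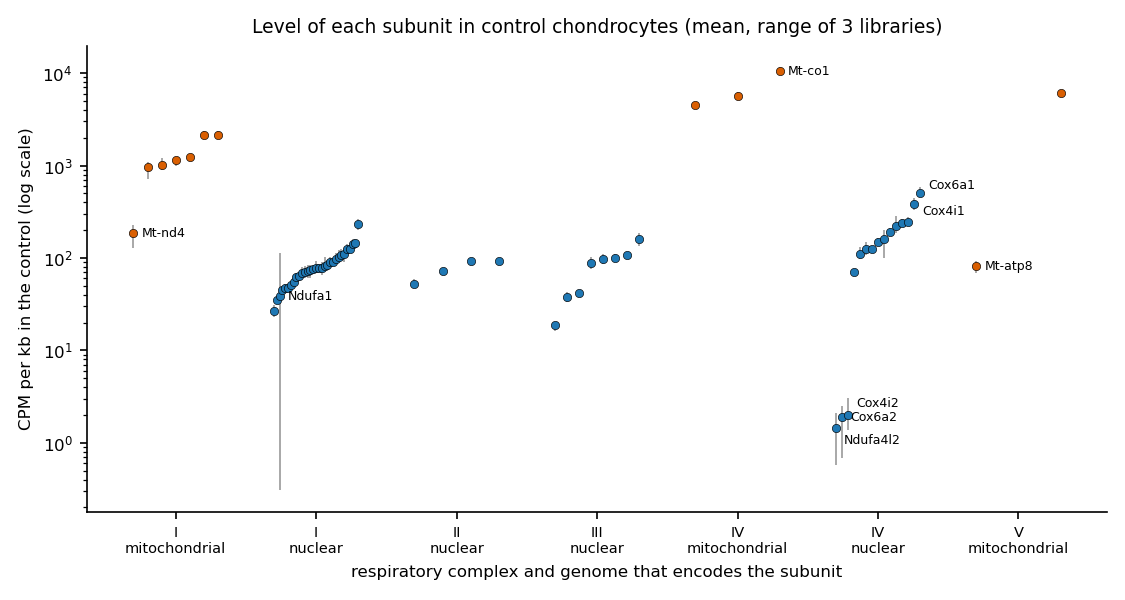
Level of each subunit gene in control chondrocytes as CPM per kb on a log axis, by complex and by the genome that encodes it; points are means and vertical lines the range of 3 libraries. Mitochondrial genes (orange) lie above the nuclear genes (blue) except Mt-nd4 and Mt-atp8, and 3 isoforms of complex IV lie far below the rest; Cox7a2l is drawn with complex III.

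Together the 12 mitochondrial members took 3.51 ± 0.0792% of all counts with Ddx5 siRNA and stress, 3.83 ± 0.23% with stress, 3.54 ± 0.144% with Ddx5 siRNA, 3.45 ± 0.0566% with control siRNA and 3.76 ± 0.286% in the control (SD, n = 3 each). The 58 nuclear members took 0.403 ± 0.0135%, 0.456 ± 0.0261%, 0.418 ± 0.0177%, 0.478 ± 0.0154% and 0.484 ± 0.052% in the same groups. The ratio of mitochondrial to nuclear counts, which needs no scaling between libraries, was 8.35, 9.15 and 8.65 with Ddx5 siRNA and stress, 8.27, 8.36 and 8.56 with stress, 7.73, 8.76 and 8.99 with Ddx5 siRNA, 7.05, 7.31 and 7.27 with control siRNA, and 6.78, 8.12 and 8.58 in the control. All Ddx5 siRNA libraries lay above all control siRNA libraries, with replicate 1 the nearest to them. The control overlapped every other group, and its replicate 1 had the lowest ratio of the 15 libraries. In bulk RNA, fewer cells of a type and less RNA per cell cannot be told apart.

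**Figure D2:**
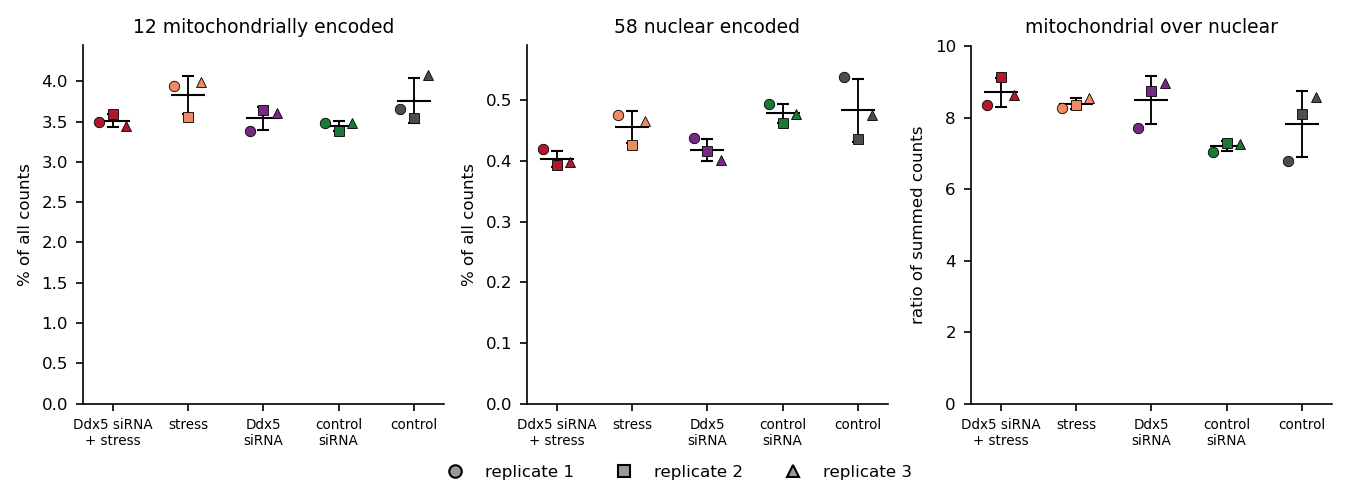
Share of all counts taken by the 12 mitochondrial members and by the 58 nuclear members, in percent, and the ratio of the first to the second, in each library; horizontal bars are means and whiskers the SD of 3 libraries. The ratio lies between 7.73 and 8.99 in Ddx5 siRNA libraries and between 7.05 and 7.31 in control siRNA libraries.

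The first question was whether mechanical stress changed these transcripts. No member was called between stress and the control (edgeR, adjusted p under 0.05 over all genes tested), beside 199 of all genes, or 1.41%. At an unadjusted p under 0.05 there were 3 members, against 15.1% of all genes, and DESeq2 called 0 (3.87% of all genes). In a fit of all 15 libraries blocked on replicate number, 366 genes were called (2.59%), 1 of them a member, Cox4i2. The numbers pair stress and the control, but this block took the replicate effect as common to all 5 groups. The mitochondrial members had a median log2 fold change of 0.07, with 9 of 12 above 0 (49.5% of all genes), and the nuclear members a median of -0.06, with 46 of 58 below 0, against a median of -0.00 and 50.5% below 0 over all genes. The shift of the nuclear members was small and its direction depended on single libraries. Their median was 0.03, with 20 of 58 below 0, without control replicate 1, and 0.00, with 28 of 58 below 0, without stress replicate 2. Without control replicate 2 it was -0.13, with 53 of 58 below 0. The log2 ratio of mitochondrial to nuclear counts was 3.07 ± 0.0251 with stress and 2.96 ± 0.177 in the control, and the groups overlapped.

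The highest fold change of any member under stress belonged to Cox4i2, the isoform of the complex IV subunit Cox4 that is known in mammalian cells to be induced at low oxygen. Cox4i2 was at 14.6, 8.41 and 5.04 CPM with stress against 3.21, 1.43 and 1.62 CPM in the control. Every stress library lay above every control library, and replicate 1 was the highest of its group in both. Its log2 fold change was 2.16 (SE 0.89, edgeR adjusted p 0.28), and with the replicate block the adjusted p was 0.033. The usual isoform Cox4i1 was at 315, 257 and 295 CPM with stress and 324, 243 and 271 CPM in the control, with overlap. Cox4i2 made up 3.12, 2.22 and 1.17% of the summed per-length level of both isoforms with stress, against 0.681, 0.406 and 0.412% in the control. It thus remained the minor form throughout.

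Ndufa4l2, a relative of the complex IV subunit Ndufa4 that is also known as a target of the low-oxygen response, was at 4.14, 5.29 and 2.33 CPM with stress against 1.96, 1.62 and 0.539 CPM in the control. The groups did not overlap, but the lowest stress library was close to the highest control library. Its log2 fold change was 1.51 (SE 0.67, edgeR adjusted p 0.31). With the replicate block the adjusted p was 0.18, and with the block and only both groups in the fit it was 0.0047, a call (Cox4i2 3.6e-05 in that fit, which called 12.5% of all genes). Ndufa4 was at 111, 96.7 and 101 CPM with stress and 129, 105 and 116 CPM in the control, a log2 fold change of -0.19 (SE 0.09, edgeR adjusted p 0.33), with groups that overlap. Cox4i2 and Ndufa4l2 were the 2 members whose stress libraries all lay above the control, 2.86% of members, and such genes made up 11.3% of all genes.

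Below the control without overlap were 2 members, against 10.4% of all genes. Both were in complex II, which has no mitochondrially encoded subunit. Sdha, its catalytic flavoprotein, was at 140, 155 and 151 CPM with stress against 170, 157 and 165 CPM in the control, a log2 fold change of -0.14 (SE 0.07, edgeR adjusted p 0.37). The other, Sdhc, a membrane anchor, was at 100, 89.9 and 104 CPM with stress against 110, 104 and 105 CPM in the control, so that the highest stress library was just below the lowest control library. Cox6c of complex IV was at 95.3, 79.8 and 87.5 CPM with stress and 127, 89.4 and 84.1 CPM in the control, with overlap. Among complex III members, Uqcrb had the lowest fold change, with 18, 14.8 and 14.7 CPM under stress against 21.1, 19.4 and 16.8 CPM in the control, which overlap (log2 fold change -0.27, SE 0.18, edgeR adjusted p 0.50).

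No mitochondrial member separated stress from the control. Mt-co1 was at 17247, 16300 and 18365 CPM with stress and 15485, 15393 and 18134 CPM in the control, a log2 fold change of 0.08 (SE 0.11, edgeR adjusted p 0.78). Mt-atp8, a short subunit of complex V, was at 24.6, 22.9 and 15.1 CPM with stress and 18.9, 17.2 and 13.9 CPM in the control. Its log2 fold change of 0.32 was the highest of the 12 (SE 0.19, edgeR adjusted p 0.45). Cytochrome b did not pass either (log2 fold change 0.11, SE 0.09, edgeR adjusted p 0.61).

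Genes of the low-oxygen response that act on mitochondria are given beside the subunits. This list was chosen with earlier results of these data known, so its calls are no independent contrast to the subunits. Of 10 tested, 4 rose under stress and none fell, with a median log2 fold change of 0.86, beside 150 risen and 49 fallen of all 14147 genes. Higd1a, which binds complex IV and stabilises it at low oxygen, rose by 1.33 (SE 0.22, edgeR adjusted p 0.0064). Pdk1, the kinase that keeps pyruvate out of the citrate cycle, rose by 1.19 (SE 0.21, edgeR adjusted p 0.0093). Lonp1, a mitochondrial protease, rose by 0.64 (adjusted p 0.018), and Ldha, which makes lactate, rose by 0.43 (adjusted p 0.032). The cartilage transcription factor Sox9 fell by 0.92 (SE 0.21, edgeR adjusted p 0.049), the 1 called chondrocyte marker of 7 tested, and its part in the results was not tested.

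None of the other mitochondrial gene groups had a call between stress and the control by edgeR or by DESeq2. The list for the nuclear ATP synthase, cytochrome c1 and cytochrome c went by name (Atp5, Atpif1, Cyc1 and Cycs). It thus includes Atp5sl, which is only named for its likeness to a subunit, and it holds Cycs more than once. Of its 22 genes, 15 were below 0, with a median log2 fold change of -0.06 and 1 unadjusted p under 0.05. The 30 assembly factors had a median of -0.09 and 0 such genes, the 75 mitochondrial ribosomal proteins -0.06 and 6, the 20 genes for expression of the mitochondrial genome -0.06 and 3, and the 7 regulators of respiratory genes -0.01 and 4. Tfam, which packages mitochondrial DNA and starts its transcription, had a log2 fold change of -0.46 (SE 0.15, edgeR adjusted p 0.17). Among the regulators, Nrf1 had 0.36 (SE 0.12, adjusted p 0.17) and Gabpa, the DNA binding subunit of GABP, had -0.43 (SE 0.15, adjusted p 0.20).

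**Figure D3:**
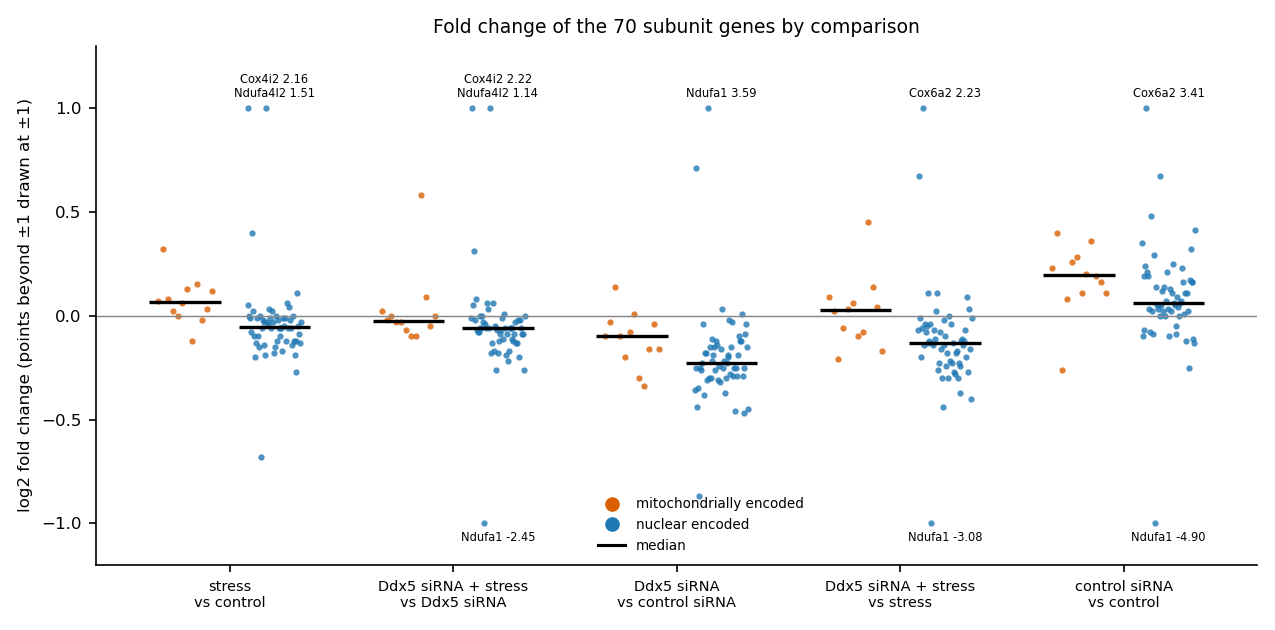
Log2 fold change of the 70 subunit genes in 5 comparisons, mitochondrially encoded in orange and nuclear encoded in blue, with black bars at the medians; points beyond 1 in size are drawn at the edge with their value. The nuclear median is lowest, at -0.23, between Ddx5 siRNA and control siRNA, and Cox4i2 and Ndufa4l2 stand above the rest in both stress comparisons.

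With Ddx5 siRNA in the cells, stress again gave no call among the 70 members, beside 169 of all genes (1.19%). At an unadjusted p under 0.05 there were 2 members, against 11.1% of all genes, and DESeq2 called 0 (2.61% of all genes). The mitochondrial members had a median log2 fold change of -0.03 and the nuclear members -0.06, against -0.00 for all genes. The log2 ratio of mitochondrial to nuclear counts was 3.12 ± 0.0663 with Ddx5 siRNA and stress and 3.08 ± 0.116 with Ddx5 siRNA, and the groups overlapped. Below Ddx5 siRNA without overlap were 6 members, against 6.53% of all genes, and none lay above it without overlap, against 8.72%.

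Cox4i2 again had the highest fold change, but the libraries spread widely. It was at 33.5, 4.94 and 6.13 CPM with Ddx5 siRNA and stress against 7.14, 1.74 and 0.75 CPM with Ddx5 siRNA. The groups overlapped because replicate 1 was far above the others in each. Within each replicate number the stressed library was higher. The log2 fold change was 2.22 (SE 0.87, edgeR adjusted p 0.35), and with the replicate block the adjusted p was 0.034. The numbers pair these groups too, but the block took the replicate effect as common to all 5 groups. That fit called no other member (1.77% of all genes). Without Ddx5 siRNA with stress replicate 1 the log2 fold change was 0.79 (adjusted p 0.76), and without replicate 1 of both groups it was 2.15 (adjusted p 0.10). Its share of the summed per-length level with Cox4i1 was 6.63, 1.31 and 1.72% with Ddx5 siRNA and stress, against 1.54, 0.443 and 0.211% with Ddx5 siRNA.

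Ndufa4l2 was at 9.71, 1.17 and 1.83 CPM with Ddx5 siRNA and stress against 2.45, 1.68 and 1.62 CPM with Ddx5 siRNA. Only replicate 1 was far above. The log2 fold change was 1.14 (SE 0.66, edgeR adjusted p 0.57), and without Ddx5 siRNA with stress replicate 1 it was -0.35. Replicate 1 of that group also had the highest summed level of the 10 low-oxygen genes, at 2566 CPM, against 1806 and 1982 CPM in the other two libraries of its group and 1421 to 1554 CPM with Ddx5 siRNA. Of these 10 genes, 3 rose, beside 149 of all 14147 genes: Higd1a by 1.5 (SE 0.22, edgeR adjusted p 0.0031), Pdk1 by 1.33 (adjusted p 0.0046) and Bnip3, a mitophagy receptor, by 2.19 (SE 0.45, adjusted p 0.042).

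Mt-nd4 was the mitochondrial member with the largest fold change here. It was at 262, 482 and 424 CPM with Ddx5 siRNA and stress against 292, 228 and 263 CPM with Ddx5 siRNA. Replicates 2 and 3 with stress were the highest of all 15 libraries, and replicate 1 was not above Ddx5 siRNA. The log2 fold change was 0.58 (SE 0.22, edgeR adjusted p 0.30). Its neighbour Mt-nd4l, which overlaps it, was at 300, 330 and 307 CPM against 310, 264 and 308 CPM. Among nuclear members, Ndufb10 of complex I was at 51.7, 48.9 and 49.7 CPM with Ddx5 siRNA and stress against 57.8, 60.8 and 60.7 CPM with Ddx5 siRNA, without overlap (log2 fold change -0.26, SE 0.12, edgeR adjusted p 0.46). Uqcrh, the hinge protein of complex III, was at 65, 50.6 and 65.6 CPM against 76.5, 75.4 and 65.4 CPM, which overlap (log2 fold change -0.26, SE 0.15, edgeR adjusted p 0.56).

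The difference between both stress responses was tested directly. edgeR called 0 genes (0%), no member had an unadjusted p under 0.05, against 3.12% of all genes, and DESeq2 called 4 genes (0.0283%), none of them a member. For Cox4i2 the difference was 0.06 on the log2 scale with an SE of 1.24, and it was -1.37 to 1.41 leaving out a library. A large difference either way could thus have been missed.

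**Figure D4:**
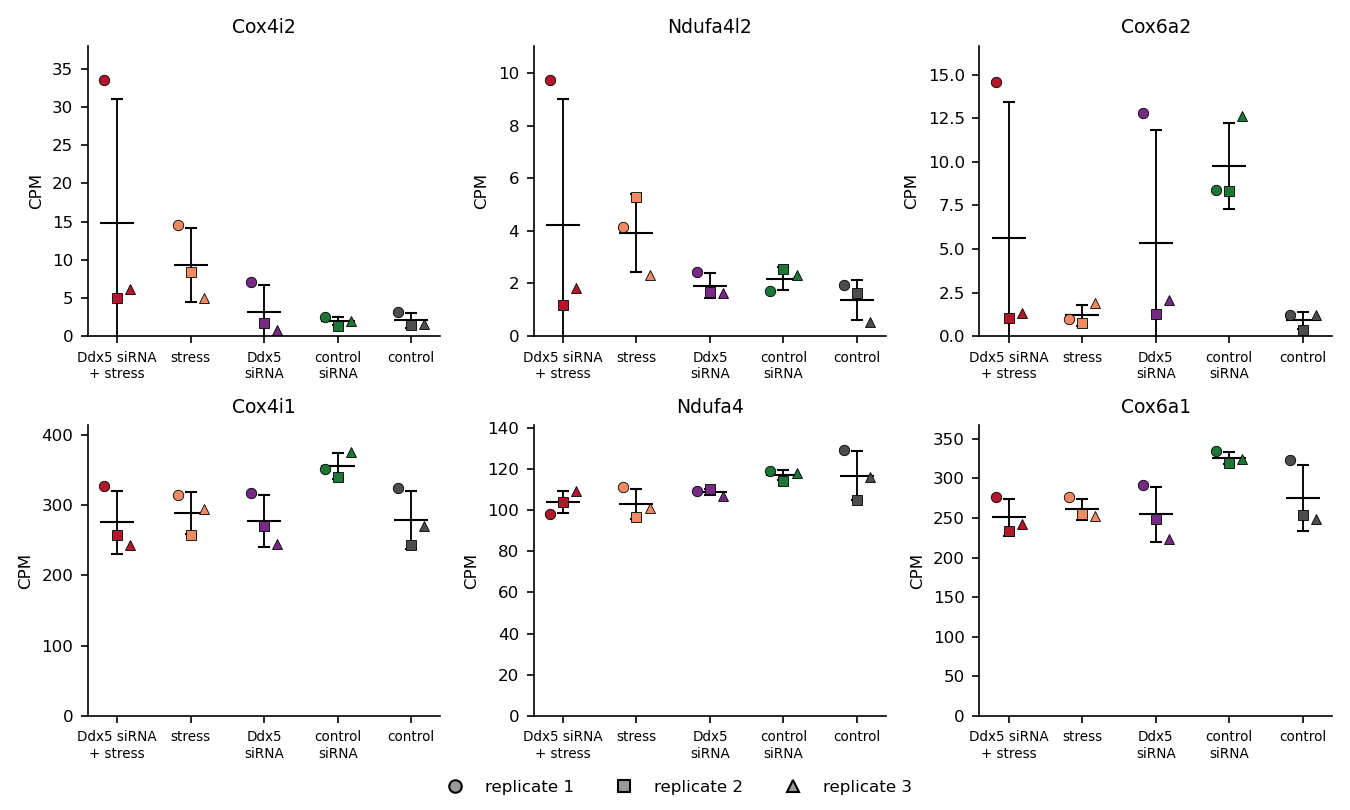
CPM of 3 isoforms of complex IV subunits (top row) and of their usual forms (bottom row) in each library; horizontal bars are means and whiskers the SD of 3 libraries, clipped at 0. Cox4i2 reaches 33.5 CPM in replicate 1 of Ddx5 siRNA with stress, and Cox6a2 lies between 8.35 and 12.6 CPM in control siRNA libraries and at 12.8 and 14.6 CPM in the replicate 1 libraries of both Ddx5 siRNA groups.

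The next question was what Ddx5 siRNA changed in unstressed cells. No member was called against control siRNA, beside 56 of all genes (0.396%), but nearly all members lay lower. At an unadjusted p under 0.05 there were 23 members, all lower and 22 of them nuclear, against 7.73% of all genes lower. DESeq2 called 2 members, Uqcrq (adjusted p 0.033) and Ndufb7 (adjusted p 0.047), against 2.79% of all genes. Of the 58 nuclear members 54 had a negative log2 fold change, with a median of -0.23, against 48.9% and a median of 0.01 over all genes. In 35 nuclear members (60.3%) and 6 of 12 mitochondrial members all Ddx5 siRNA libraries lay below all control siRNA libraries, against 13.2% of all genes. No member lay above without overlap, against 10.7% of all genes. After TMM scaling, the nuclear members summed to 3997 to 4528 CPM with Ddx5 siRNA and 4853 to 5123 CPM with control siRNA. The control, at 4189 to 5086 CPM, overlapped both groups. Lower here thus means lower than control siRNA, and the sums did not separate Ddx5 siRNA from the control.

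The call depended on replicate 1 of Ddx5 siRNA. Without that library edgeR called 4 members, all lower, namely Uqcrq, Ndufb7, Ndufs8 and Cox6a1, against 4.47% of all genes. Without replicate 1 of both Ddx5 siRNA groups it called 16 members, 15 of them nuclear and all lower, which is 22.9% of members against 13.4% of all genes. In that fit the nuclear median was -0.27, with 56 of 58 members below 0, against a median of -0.00 for all genes, and the mitochondrial median was -0.14.

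Uqcrq, a small subunit of complex III, had the lowest adjusted p of the members. It was at 161, 140 and 129 CPM with Ddx5 siRNA against 202, 171 and 214 CPM with control siRNA. The groups did not overlap, and replicate 1 of Ddx5 siRNA lay nearest to control siRNA. Its log2 fold change was -0.45 (SE 0.12, edgeR adjusted p 0.12). Uqcrb, which binds ubiquinone in the same complex, was at 19.4, 14.7 and 17.6 CPM against 24, 24 and 23.4 CPM (log2 fold change -0.47 ± 0.18 SE, adjusted p 0.21 by edgeR). All 7 nuclear complex III members had negative values, with a median of -0.25.

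In complex I, 29 of 31 nuclear members were below 0, with a median log2 fold change of -0.23. Ndufs8, which carries iron-sulphur clusters in the peripheral arm, was at 58, 49 and 43.2 CPM with Ddx5 siRNA against 70.5, 63.5 and 72.3 CPM with control siRNA. The groups did not overlap (log2 fold change -0.46, SE 0.14, edgeR adjusted p 0.15). Ndufb7, an accessory subunit of the membrane arm, was at 62.7, 58.4 and 54 CPM against 77.8, 70.6 and 77.7 CPM. All its Ddx5 siRNA libraries were lower (log2 fold change -0.37, SE 0.10, edgeR adjusted p 0.13). Ndufa10, another accessory subunit, was at 84.4, 78.4 and 79.4 CPM against 101, 97.8 and 99.6 CPM, with little spread in either group (log2 fold change -0.30, SE 0.09, edgeR adjusted p 0.14).

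Complex IV showed the same direction in 14 of 15 nuclear members, with a median of -0.25. Cox8a, a small membrane subunit, was at 125, 117 and 108 CPM with Ddx5 siRNA against 145, 142 and 145 CPM with control siRNA (log2 fold change -0.31, SE 0.10, edgeR adjusted p 0.18). Cox6a1 was at 292, 248 and 223 CPM against 334, 319 and 324 CPM (log2 fold change -0.35 ± 0.12 SE, adjusted p 0.18 by edgeR). In both genes replicate 1 was the highest of the Ddx5 siRNA libraries, and the groups did not overlap. The complex II members stood closer to 0, with a median of -0.11, although in 3 of 4 the groups did not overlap (13.2% of all genes lower). Sdha was at 146, 139 and 137 CPM with Ddx5 siRNA against 156, 150 and 147 CPM with control siRNA. Sdhb, its iron-sulphur subunit, was at 91.9, 91.5 and 86.6 CPM against 100, 96.1 and 96.8 CPM. The exception was Sdhd, at 49.5, 55.9 and 58.6 CPM against 59.4, 53.1 and 50.1 CPM.

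Among the mitochondrial members the median was -0.10, with 10 of 12 below 0. Mt-nd3, a membrane subunit of complex I, was at 417, 408 and 378 CPM with Ddx5 siRNA against 502, 466 and 516 CPM with control siRNA. The groups did not overlap (log2 fold change -0.30, SE 0.09, edgeR adjusted p 0.16). Mt-co1 went the other way, with 13164, 16177 and 15811 CPM against 13656, 13443 and 13854 CPM, and replicate 1 of Ddx5 siRNA lay below all control siRNA libraries (log2 fold change 0.14, SE 0.11, edgeR adjusted p 0.58). The log2 ratio of mitochondrial to nuclear counts was 3.08 ± 0.116 with Ddx5 siRNA and 2.85 ± 0.0281 with control siRNA, without overlap, a difference of 0.23. Without Mt-co1 the difference was 0.13, and by the mean of log2 counts over members it was 0.08. The mitochondrial share of counts overlapped, while the nuclear share lay between 0.401 and 0.437% with Ddx5 siRNA and between 0.463 and 0.494% with control siRNA.

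The lower levels were shared by other genes for mitochondrial proteins. Of the 22 genes in the name list for the nuclear ATP synthase, cytochrome c1 and cytochrome c, 20 were below 0. Of the 22, 15 (68.2%) lay below control siRNA without overlap, against 13.2% of all genes. Their median log2 fold change was -0.20, with no call (10 lower at an unadjusted p under 0.05, against 7.73% of all genes, and 0 by DESeq2). Of 75 mitochondrial ribosomal proteins, 63 were below 0 and 33 (44.0%) lay below without overlap, again with a median of -0.20 and no call (23 lower at an unadjusted p under 0.05, 2 by DESeq2). Mrpl45 had the lowest adjusted p of these (log2 fold change -0.44, SE 0.09, edgeR adjusted p 0.060). Assembly factors had a median of -0.15 over 30 genes, and Lyrm7, which matures the Rieske protein of complex III, had -0.75 (SE 0.18, edgeR adjusted p 0.084). The 20 genes for expression of the mitochondrial genome had a median of -0.06, and the 7 regulators 0.13, with Ppargc1b at -1.28 (SE 0.74, edgeR adjusted p 0.43).

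Promoter windows are shown for 4 of the nuclear members with the lowest adjusted p between Ddx5 siRNA and control siRNA, chosen because each window holds a core GABP site, so that the place of the site can be compared. RefSeq windows of the GRCr8 assembly, 250 bases before to 50 after the annotated start, were matched to 50 of the 58 nuclear members. The capitals mark the GABP core CCGGAAG, or CTTCCGG where it lies on the other strand, and in Cox8a also GCCATCTT, the YY1 core AAGATGGC read on the other strand.

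Uqcrq: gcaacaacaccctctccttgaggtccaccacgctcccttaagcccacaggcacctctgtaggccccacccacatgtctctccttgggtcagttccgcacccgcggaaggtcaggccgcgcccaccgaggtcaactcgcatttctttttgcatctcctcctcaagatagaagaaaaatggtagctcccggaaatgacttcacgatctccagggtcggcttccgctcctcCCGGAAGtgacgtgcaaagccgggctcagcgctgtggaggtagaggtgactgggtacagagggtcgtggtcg
Cox8a: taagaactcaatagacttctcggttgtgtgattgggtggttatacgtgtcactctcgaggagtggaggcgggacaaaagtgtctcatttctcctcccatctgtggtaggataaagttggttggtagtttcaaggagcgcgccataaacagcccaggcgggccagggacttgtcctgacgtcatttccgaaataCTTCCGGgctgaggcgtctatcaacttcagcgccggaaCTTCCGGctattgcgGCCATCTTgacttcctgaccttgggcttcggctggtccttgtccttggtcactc
Ndufs8: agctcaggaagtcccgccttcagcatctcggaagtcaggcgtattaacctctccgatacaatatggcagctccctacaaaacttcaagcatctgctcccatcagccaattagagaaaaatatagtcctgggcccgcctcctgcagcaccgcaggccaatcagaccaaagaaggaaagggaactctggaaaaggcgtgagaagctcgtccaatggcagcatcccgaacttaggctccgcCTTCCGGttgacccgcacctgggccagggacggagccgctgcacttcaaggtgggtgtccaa
Ndufb7: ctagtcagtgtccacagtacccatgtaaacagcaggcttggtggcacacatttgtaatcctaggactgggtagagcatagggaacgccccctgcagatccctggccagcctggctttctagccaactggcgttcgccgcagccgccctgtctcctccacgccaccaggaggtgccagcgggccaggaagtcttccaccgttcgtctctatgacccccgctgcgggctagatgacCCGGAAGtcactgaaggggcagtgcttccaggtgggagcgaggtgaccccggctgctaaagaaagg

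All 4 windows lie on the minus strand of GRCr8, at chr10:38089929-38090228 for Uqcrq, chr1:213833574-213833873 for Cox8a, chr1:210573649-210573948 for Ndufs8 and chr19:41477242-41477541 for Ndufb7. The GABP core begins 22 bases before the annotated start in Uqcrq, 57 and 19 bases before it in Cox8a, 12 in Ndufs8 and 16 in Ndufb7, and the YY1 core of Cox8a begins 4 bases before it. Searched on both strands, CCGGAAG was in 16 of the 50 matched windows of members (32.0%) and in 9.22% of all 27457 windows of this length. The YY1 core AAGATGGC was in 10 windows of members (20%) and in 3.44% of all windows, and the NRF1 core GCGCATGC was in 4 (8%) and in 2.66%. The hypoxia response core, ACGTG or GCGTG, was in 25 of 50 and in 42.9%, and these letters were not in the Ndufa4l2 window. Cox4i2 had no matched window and was not searched. A match of letters is a description of the window and not a measured binding site.

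Ddx5 siRNA was then compared under stress, against stress without siRNA. No member was called, beside 4 of all genes (0.0283%). At an unadjusted p under 0.05 there were 12 members, all nuclear and lower, against 5.23% of all genes lower, and DESeq2 called 0 (1.12% of all genes). Of 58 nuclear members 50 were below 0, with a median log2 fold change of -0.13, against 46.1% and a median of 0.03 over all genes. In 14 nuclear members (24.1%) and 1 mitochondrial member, Mt-co1, all libraries lay below stress, against 7.32% of all genes, and no member lay above without overlap, against 7.57%. The mitochondrial median was 0.03, and it was -0.06 to 0.04 as each library was left out. Without replicate 1 of both Ddx5 siRNA groups it was -0.06, and the nuclear median was then -0.18, against 0.01 for all genes. The comparison differs in siRNA delivery as well as in Ddx5, and these cannot be told apart here.

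Complex I held 10 of the 12 members at an unadjusted p under 0.05, and 30 of its 31 nuclear members were below 0. Ndufb10, an accessory subunit of the membrane arm, was at 51.7, 48.9 and 49.7 CPM with Ddx5 siRNA and stress against 66.3, 58.2 and 79.1 CPM with stress. The groups did not overlap, and the stress libraries spread more widely (log2 fold change -0.44, SE 0.12, edgeR adjusted p 0.21). Ndufv2, an iron-sulphur subunit of the module that oxidises NADH, was at 49.3, 52.7 and 47.5 CPM against 65.7, 58.1 and 69.6 CPM (log2 fold change -0.37 ± 0.11 SE, adjusted p 0.25 by edgeR). Ndufv1, which binds NADH in the same module, was at 115, 102 and 107 CPM against 124, 125 and 134 CPM (log2 fold change -0.24 ± 0.08 SE, adjusted p 0.29 by edgeR). In both genes all libraries with Ddx5 siRNA lay below all stress libraries.

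In complex III, Uqcrh was at 65, 50.6 and 65.6 CPM with Ddx5 siRNA and stress against 77.1, 66.5 and 96.3 CPM with stress. The groups came within 1 CPM of each other (log2 fold change -0.40, SE 0.15, edgeR adjusted p 0.33). Uqcrq was at 152, 130 and 148 CPM against 160, 143 and 130 CPM, which overlap. In unstressed cells its reference was control siRNA, at 202, 171 and 214 CPM, so both comparisons of Uqcrq have unlike references. Mt-co1 was at 14544, 15396 and 15088 CPM with Ddx5 siRNA and stress against 17247, 16300 and 18365 CPM with stress (log2 fold change -0.21, SE 0.11, edgeR adjusted p 0.50). The nuclear share of counts lay below stress without overlap, but after TMM scaling the summed levels overlapped, at 3862 to 4425 CPM with Ddx5 siRNA and stress and 4186 to 4663 CPM with stress. The mitochondrial share and the ratio of both overlapped too. Of 22 ATP synthase and cytochrome c genes 18 were below 0 (median log2 fold change -0.18), and of 75 mitochondrial ribosomal proteins 65 were (median -0.15), with no call in either list (6 and 11 at an unadjusted p under 0.05, 0 and 3 by DESeq2).

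Control siRNA was set against the control to show what siRNA delivery alone went with, and in the fit of all 15 libraries this comparison had the most genes called. No member was among the 547 genes called (3.87%), while 11 members had an unadjusted p under 0.05, 8 of them higher (background 10.4%) and 3 lower (background 10.1%). DESeq2 called 2 members, Uqcrq higher and Ndufa1 lower, against 7.62% of all genes. The mitochondrial members had a median log2 fold change of 0.20, with 11 of 12 above 0, and the nuclear members 0.06, with 46 of 58 above 0, against 49.5% and a median of -0.00 over all genes. The nuclear shift depended on single control libraries, with a median of 0.15 without control replicate 1 and 0.00 without control replicate 2, while the mitochondrial median stayed between 0.12 and 0.25 as each library was left out. Groups lay apart and higher in 5 mitochondrial and 11 nuclear members (22.9% of members, against 16% of all genes), and apart and lower in 3 members (4.29%, against 15.4%). The summed chondrocyte markers were higher with control siRNA without overlap through Acan, at 287, 307 and 273 CPM against 109, 219 and 120 CPM (log2 fold change 0.95, edgeR adjusted p 0.19), while 6 of 7 tested markers were below 0, with a median of -0.54. Prg4, the lubricin of the joint surface, fell by 1.91 (SE 0.49, edgeR adjusted p 0.043). The part of these markers in the subunit values was not tested. This comparison and that of Ddx5 siRNA with control siRNA share the control siRNA libraries, so their values are not independent.

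The nuclear members with the clearest values were those that also stood out between Ddx5 siRNA and control siRNA, and levels in all 3 groups are given for them. Uqcrq was at 202, 171 and 214 CPM with control siRNA against 166, 136 and 140 CPM in the control (log2 fold change 0.41, SE 0.12, edgeR adjusted p 0.074). The Ddx5 siRNA libraries, at 161, 140 and 129 CPM, lay in the range of the control or below it. Cox7a2l, which joins complexes III and IV into supercomplexes, was at 166, 162 and 172 CPM with control siRNA against 138, 106 and 116 CPM in the control (log2 fold change 0.48, SE 0.16, edgeR adjusted p 0.10). It was at 152, 119 and 113 CPM with Ddx5 siRNA and at 164, 112 and 110 CPM with Ddx5 siRNA and stress. Replicate 1 of both Ddx5 siRNA groups lay nearer to control siRNA, and replicates 2 and 3 lay in the range of the control. Against control siRNA, Cox7a2l had a log2 fold change of -0.38 with Ddx5 siRNA (SE 0.16, edgeR adjusted p 0.26), and without replicate 1 of both Ddx5 siRNA groups it was -0.52 (adjusted p 0.0072).

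Cox8a was at 145, 142 and 145 CPM with control siRNA against 129, 114 and 110 CPM in the control (log2 fold change 0.29, SE 0.10, edgeR adjusted p 0.12). Cox4i1 was at 351, 341 and 376 CPM against 324, 243 and 271 CPM (log2 fold change 0.35 ± 0.14 SE, adjusted p 0.17 by edgeR). Neither gene's groups overlapped, and replicate 1 was the highest control library in both. Sdhd was lower, at 59.4, 53.1 and 50.1 CPM with control siRNA against 72.8, 58.5 and 61.7 CPM in the control, with overlap (log2 fold change -0.25, SE 0.11, edgeR adjusted p 0.22).

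Mt-co1 parted from the other mitochondrial members. It was at 13656, 13443 and 13854 CPM with control siRNA against 15485, 15393 and 18134 CPM in the control, all lower (log2 fold change -0.26, SE 0.11, edgeR adjusted p 0.21). Mt-cox3 was at 5411, 5082 and 5501 CPM against 4384, 4121 and 4858 CPM, all higher (log2 fold change 0.26, SE 0.11, edgeR adjusted p 0.20). Mt-nd1, the complex I subunit at the ubiquinone site, was at 2505, 2410 and 2471 CPM against 1939, 1877 and 2280 CPM, also all higher (log2 fold change 0.28, SE 0.11, edgeR adjusted p 0.17). The summed mitochondrial share of all counts was 3.38 to 3.48% with control siRNA and 3.54 to 4.08% in the control, without overlap. After TMM scaling the sums overlapped, with means of 36105 CPM with control siRNA and 35926 CPM in the control.

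The share of Mt-co1 in the counts of the 12 mitochondrial members, which does not depend on library scaling, was 39.4, 43.6 and 44.1% with Ddx5 siRNA and stress, 44.7, 46.6 and 47.1% with stress, 37.6, 44.2 and 44% with Ddx5 siRNA, 37.8, 37.9 and 37.7% with control siRNA and 44.9, 45.3 and 46.2% in the control. The control siRNA libraries and replicate 1 of Ddx5 siRNA lay within 0.3 percentage points of each other and below every other library, with replicate 1 of Ddx5 siRNA with stress next above them. The longer of both mitochondrial ribosomal RNAs in the table (AY172581.24), which is no member, was at 728, 741 and 770 CPM with Ddx5 siRNA and stress, 691, 676 and 671 CPM with stress, 414, 746 and 696 CPM with Ddx5 siRNA, 361, 358 and 401 CPM with control siRNA and 649, 566 and 606 CPM in the control. It fell by 0.70 on the log2 scale between control siRNA and the control (SE 0.16, edgeR adjusted p 0.025), and replicate 1 of Ddx5 siRNA was again near control siRNA.

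**Figure D5:**
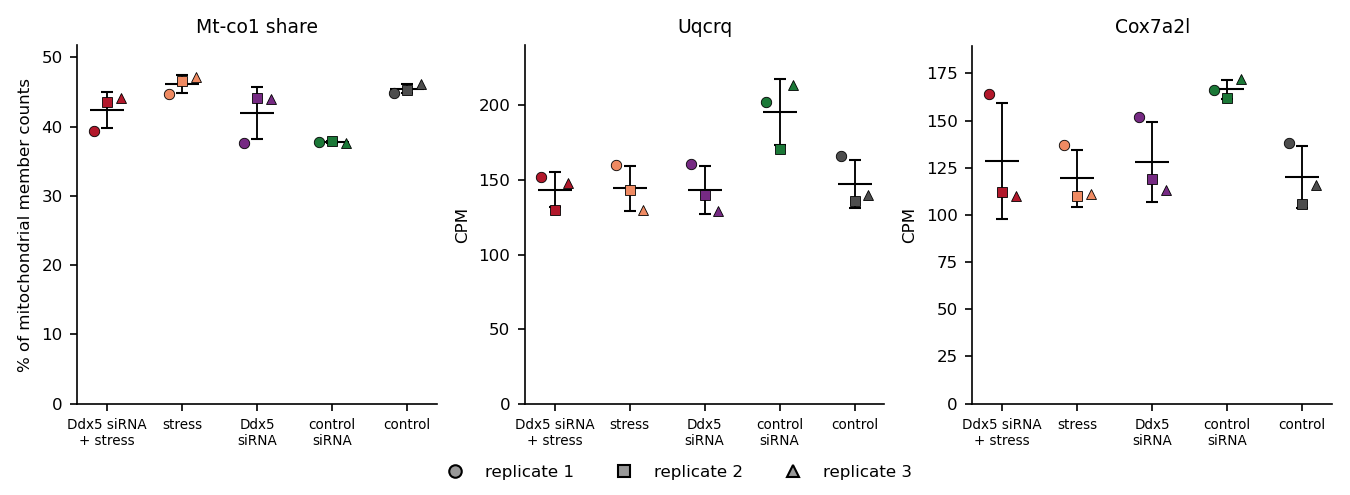
Share of Mt-co1 in the counts of the 12 mitochondrial members, in percent, and CPM of Uqcrq and Cox7a2l, in each library; horizontal bars are means and whiskers the SD of 3 libraries. Replicate 1 of Ddx5 siRNA (circle) lies with the control siRNA libraries for the Mt-co1 share, at 37.6% against 37.7 to 37.9%.

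Cox6a2, the form of subunit 6a found in heart and skeletal muscle, split the libraries otherwise, with replicate 1 of both Ddx5 siRNA groups beside control siRNA. It was at 14.6, 1.03 and 1.33 CPM with Ddx5 siRNA and stress, 0.975, 0.747 and 1.89 CPM with stress, 12.8, 1.24 and 2.06 CPM with Ddx5 siRNA, 8.36, 8.35 and 12.6 CPM with control siRNA and 1.19, 0.325 and 1.2 CPM in the control. The control siRNA libraries and replicate 1 of both Ddx5 siRNA groups were at 8.35 CPM or more, and the other 10 libraries at 2.06 CPM or less. Between control siRNA and the control the log2 fold change was 3.41 (SE 1.14, edgeR adjusted p 0.13). It was 2.23 between Ddx5 siRNA with stress and stress (SE 1.10, edgeR adjusted p 0.47), and -0.03 without replicate 1 of Ddx5 siRNA with stress. Cox6a1 was at 277, 233 and 242 CPM with Ddx5 siRNA and stress, 276, 255 and 252 CPM with stress, 292, 248 and 223 CPM with Ddx5 siRNA, 334, 319 and 324 CPM with control siRNA and 323, 254 and 249 CPM in the control.

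The 8 skeletal muscle markers in the table summed to 17.3 to 28.9 CPM with Ddx5 siRNA and stress, 15.3 to 24.1 CPM with stress, 23.3 to 44.4 CPM with Ddx5 siRNA, 17.9 to 23.4 CPM with control siRNA and 22.5 to 25.1 CPM in the control. Myog, a regulator of muscle differentiation, was at 0 in all libraries. Acta1, skeletal muscle actin, was at 14.6 CPM in replicate 1 of Ddx5 siRNA and 6.52 CPM in replicate 1 of Ddx5 siRNA with stress. It was at 2.87, 2.47 and 2.58 CPM with control siRNA and 3.21, 0.455 and 0.18 CPM in the control, against at most 0.931 CPM elsewhere. Myh1, a skeletal myosin heavy chain, fell by 0.86 between control siRNA and the control (SE 0.16, edgeR adjusted p 0.0083). It rose by 1.14 between Ddx5 siRNA and control siRNA (SE 0.16, edgeR adjusted p 0.018). The muscle markers did not move together. Of 5 tested, 2 were above 0 and 3 below between control siRNA and the control, with Acta1 at 1.03 (SE 1.5) and Tnnt3 at 0.40 (SE 0.38). Between Ddx5 siRNA and control siRNA 3 were above 0 and 2 below, with Acta1 at 1.02 (SE 1.42) and Tnnt3 at -0.41 (SE 0.38). The part of muscle cells in the Cox6a2 values was not tested.

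Ndufa1, a small complex I subunit, had counts too uneven for a comparison, and is given as counts. It had 5, 5 and 18 counts with Ddx5 siRNA and stress, 16, 229 and 6 with stress, 124, 3 and 27 with Ddx5 siRNA, 6, 2 and 4 with control siRNA and 13, 1 and 402 in the control. A single library set the level in 3 of the groups. The log2 fold change of -4.90 between control siRNA and the control (SE 2.15, edgeR adjusted p 0.23) rests on control replicate 3, and without that library it was -0.64.

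In the other lists, Atp5sl, named for its likeness to an ATP synthase subunit, had a log2 fold change of 0.48 between control siRNA and the control (SE 0.13, edgeR adjusted p 0.050) and was the 1 call among 22 genes. Of 75 mitochondrial ribosomal proteins, Mrpl37 and Mrpl45 rose by 0.45 each (edgeR adjusted p 0.011 and 0.017), and Mrps6 fell by 0.52 (adjusted p 0.050, under the threshold before rounding). The protease Lonp1 rose by 0.89 (SE 0.12, edgeR adjusted p 0.0014), the 1 call among the 10 low-oxygen genes. Esrra, the orphan receptor ERR alpha that drives many respiratory genes, had the lowest adjusted p of the 7 regulators (log2 fold change 0.35, SE 0.11, edgeR adjusted p 0.099). The lists for assembly factors and for expression of the mitochondrial genome had no call (4 and 2 at an unadjusted p under 0.05, 0 by DESeq2).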

How the data were processed

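RNA-seq of 15 libraries was analysed. The authors deposited raw read counts per gene and FPKM values. The aligner, the counter, use of strand and the genome build are not stated. The deposited FPKM equal count over gene length times 1 number per library (largest relative deviation 3.7e-14), so they hold no other reads and served as an alternative only. Of the genes, 12068 had no count.

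Counts were filtered with filterByExpr by group (14147 genes), scaled by TMM (factors 0.947 to 1.06), and fitted with edgeR 4.0.16 (R 4.3.3, robust quasi-likelihood, all 15 libraries, 1 term per group; biological coefficient of variation 0.217). A gene was called at a Benjamini-Hochberg adjusted p under 0.05 over all genes. The SE of an edgeR fold change was derived from its test, as the size of the log2 fold change over the square root of F. DESeq2 1.42.0 was an alternative. Other alternatives were RLE scaling, scaling without mitochondrial genes, other filters, the replicate number as a block, only the groups compared, and leaving out each library. CPM were computed from the deposited counts and TMM factors. The scripts were tested on simulated data. Sums over members were not tested.

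Same-numbered libraries deviated together in stress and control (r 0.339, 0.274 and 0.395) and in Ddx5 siRNA with stress and Ddx5 siRNA (r 0.589, 0.252 and 0.352), so the numbers were taken to pair these groups. Libraries of a group differed by more than sampling noise (chi-square over its degrees of freedom 7.618 to 65.25), and each counted as a replicate.

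Named were all mitochondrial members, called members, complex II, isoform pairs, the 3 highest and 3 lowest fold changes per comparison, and from other lists up to 4 genes by adjusted p. Other members were named after their values were seen. The members and lists were chosen with earlier results of these data known.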

Additional observations from a re-analysis of the deposited data

How the results depend on the processing

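Precision is limited by 3 libraries per group and, for Cox4i2, Ndufa4l2, Cox6a2 and Ndufa1, by low counts. The count of members called stayed 0 in all 6 comparisons under RLE scaling, TMM without mitochondrial genes, both other filters and, except as given here, the rest. With the replicate block it was 1 for stress against control (2 with only the groups compared), 1 for Ddx5 siRNA with stress against Ddx5 siRNA (1), 6 for Ddx5 siRNA against control siRNA, and 5 for control siRNA against control (3 with only the groups compared, 3 without the block); the numbers do not pair the last 2 comparisons (correlations -0.182 to 0.0253 and 0.0671 to 0.0912) or Ddx5 siRNA with stress and stress (0.05 to 0.306). DESeq2 called 2 members in each of the last 2. Leaving out each library, the count ranged from 0 to 4 for Ddx5 siRNA against control siRNA, where it was 16 without replicate 1 of both Ddx5 siRNA groups (chosen after seeing the data), and was 0 elsewhere. The difference in log2 ratio was 0.08 by mean log2 counts and 0.13 without Mt-co1 for Ddx5 siRNA against control siRNA (0.19 to 0.30 leaving out a library), 0.16 and 0.15 for Ddx5 siRNA with stress against stress (main 0.05), and 0.06 and 0.08 for control siRNA against control (main -0.11, so the sign turned). Leaving out each library, the nuclear median log2 fold change was -0.13 to 0.03 for stress against control, -0.27 to -0.17 for Ddx5 siRNA against control siRNA, -0.13 to -0.04 for Ddx5 siRNA with stress against Ddx5 siRNA, -0.18 to -0.08 for Ddx5 siRNA with stress against stress and 0.00 to 0.15 for control siRNA against control. Signs also turned for Ndufa4l2 in Ddx5 siRNA with stress against Ddx5 siRNA (-0.35 to 1.59 leaving out a library, -0.13 without both replicate 1 libraries), for Cox6a2 in Ddx5 siRNA with stress against stress (-0.03 to 2.72, and -0.03), and for the Cox4i2 difference between stress responses (-1.37 to 1.41, -0.01 with the block, -0.00 with the block and only the groups compared, -0.01 without both replicate 1 libraries). Genes called over the whole table moved by more than 1.5 times: for stress against control from 199 to 547 by DESeq2, 366 and 1683 with the block and 81 to 157 leaving out a library; for Ddx5 siRNA against control siRNA from 56 to 394, 417, 0 and 1 to 645, and 1916 without both replicate 1 libraries; for Ddx5 siRNA with stress against Ddx5 siRNA from 169 to 369 by DESeq2, 985 with the block and 23 without it in only the groups compared, and 61 to 187; for Ddx5 siRNA with stress against stress from 4 to 18 by RLE, 16 unfiltered, 158 by DESeq2, 30 and 1 with the block, 0 in only the groups compared, 0 to 7, and 160; for control siRNA against control from 547 to 1078, 1173, 1570, 1394 and 166 to 392; and for the difference from 0 to 4 by DESeq2 and 0 to 2. The causes were not tested.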
